A study of Sus scrofa with 4 samples.

Results

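A heart library from Tibetan pigs, a breed of the domestic pig (Sus scrofa), was described against the liver, lung and kidney libraries of the same breed. There was 1 library per tissue, made from total RNA, so no value below has a replicate check, a p-value or a standard deviation. The labels give no treatment, age or sex, and do not say whether the tissues came from the same animal or from pooled animals. The series title gives gene annotation as the purpose of the libraries, and the comparison between tissues is the one their labels allow.

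The heart models were chosen by a level of at least 1 RPKM in heart, where RPKM is a read count divided by the length of the model in kilobases and by the depth of the library. This gave 12455 gene models of the 18367 that had a read in any of the 4 libraries, or 67.8%. They held 99.8% of the 14062622 heart reads. The other libraries had 4090775 reads in liver, 8853076 in lung and 5486480 in kidney, so heart was the deepest. A model missing from a table was counted as 0 reads. The files identify models by scaffold and model number and do not pair them with gene names. For that reason no gene, pathway or cell type can be named, the tissue labels could not be checked against marker genes, and no sequence is shown. Models are described by level, length, position on the scaffold and tissue.

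The heart muscle is built of cardiomyocytes, large contractile cells packed with sarcomeres and mitochondria, beside endothelial cells, fibroblasts, smooth muscle and blood. Sarcomere proteins and the enzymes of oxidative metabolism are known as abundant transcripts of this tissue, and many sarcomere proteins have forms used mainly in striated muscle. The liver and the kidney are built of epithelial cells of other kinds, and the lung of thin epithelium and a dense capillary bed. In whole tissue, fewer cells of a type and less RNA per cell cannot be told apart.

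Levels in heart spanned 4 strata that were very unequal in reads. The median heart model stood at 12.7 RPKM, with quartiles of 5.21 and 31.5 RPKM, and the highest at 36416 RPKM. Between 1 and 10 RPKM lay 5318 models, 42.7% of the heart models, with 4.90% of heart reads (95% Clopper-Pearson interval 4.89 to 4.91). From 10 to 100 RPKM there were 6081 models with 31.1% of reads (31.1 to 31.2). The 939 models from 100 to 1000 RPKM took 33.3% (33.2 to 33.3). At 1000 RPKM or more stood 117 models, 0.939% of the heart models, with 30.5% of reads (30.5 to 30.5). The 2 highest strata thus carried most reads of the library on few of its models. Only 6 models reached 10000 RPKM, and they took 6.33% of reads. By number of models, 26 held 25% of the reads, 1540 held 75% and 4188 held 90%. The remaining 4067 models listed in heart, all below 1 RPKM, shared 0.196% of reads.

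Depth set how well a model could be placed. At the median length of 1338 bases, 1 RPKM in heart was 18.8 reads, and for the shortest heart model, of 153 bases, it was 2.15 reads. Of the heart models, 166 had fewer than 10 reads. For 11866 of the 12455 the exact Poisson interval of the level lay wholly at or above 1 RPKM. The interval stayed inside its own stratum for 77.1% of the models at 1 to 10 RPKM, 90.5% at 10 to 100, 94.9% at 100 to 1000 and 96.6% at 1000 or more. The models next to the lower limit were at 0.999 RPKM with 19 reads (0.601 to 1.56 RPKM) and 1.00 RPKM with 66 reads (0.775 to 1.28), so either could lie on the other side. At the 1000 RPKM limit the neighbours were at 992 RPKM (966 to 1018) and 1008 RPKM (988 to 1029).

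Heart lay between liver and the other libraries in how far reads gathered in the highest models. Models at 1000 RPKM or more in their own library took 47.7% of reads in liver, 30.5% in heart, 19.5% in kidney and 13.2% in lung. Their number was more even, at 117 in heart, 104 in kidney, 94 in liver and 79 in lung. The difference between heart and kidney was therefore more one of reads per model than of models: at 1000 RPKM or more, a model had 0.261% of the library's reads on average in heart and 0.188% in kidney. From 10 to 100 RPKM the order was the reverse, with 48.4% of reads in lung, 37.4% in kidney, 31.1% in heart and 19.9% in liver.

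**Figure D1:**
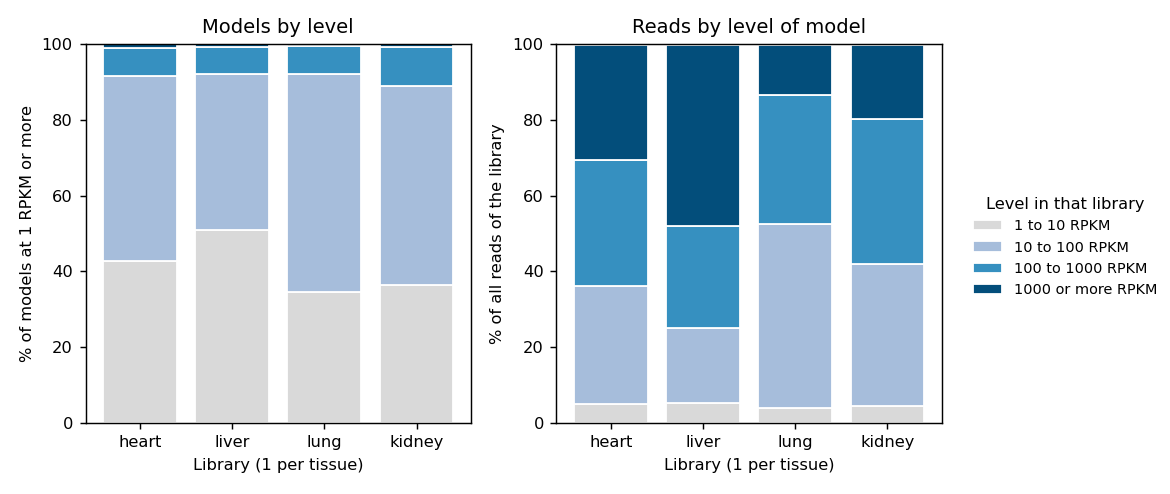
Stacked bars of the share of models at 1 RPKM or more (left, %) and of the share of all reads (right, %) by level of the model in that library, for the 4 libraries. In heart the 117 models at 1000 RPKM or more are a thin band on the left and 30.5% of the reads on the right, below liver at 47.7% and above kidney at 19.5% and lung at 13.2%.

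Across the 4 strata, heart models of higher level were shorter by median. The median length was 1467 bases at 1 to 10 RPKM, 1344 at 10 to 100, 849 at 100 to 1000 and 528 at 1000 RPKM or more. With the highest stratum started at 500 RPKM its median was 592.5 bases. Started at 2000 RPKM it was 711 bases, and the 6 models at 10000 RPKM or more had a median of 547.5 bases. The median thus did not fall steadily as the limit rose. The quartiles of the lowest stratum were 849 and 2339.5 bases and those of the highest were 390 and 855 bases. Models of 300 bases or less made up 3.87% of the lowest stratum and 9.40% of the highest, and models of 3000 bases or more went from 15.1% to 3.42%. The median also fell from the lowest to the highest stratum for lung (1303 to 573 bases), for kidney (1464 to 606) and for liver (1518 to 915), so shorter models at high level were no property of heart alone. Most lengths were multiples of 3, at 89.3% in the lowest heart stratum and 94.9% in the highest, so most are coding lengths, and untranslated regions may lie outside them.

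Seen by length, reads and levels ran differently. Heart models of 301 to 600 bases had the highest median level, 18.8 RPKM, with 54 of the 117 models at 1000 RPKM or more and 13.7% of heart reads. Those of 2401 to 4800 bases had the lowest median level, 10.4 RPKM, and took 17.1% of reads. The 586 heart models over 4800 bases had a median of 12.3 RPKM, yet took 21.7% of reads. By the definition of RPKM, a long model draws more reads at the same level. A single model of 80727 bases, described below, supplied 3.49% of heart reads. Another of 5817 bases, also described below, stood far above that median, at 5444 RPKM, and supplied 3.17%. Among models at 1 RPKM or more in their own library, the median level from 301 to 600 bases to over 4800 bases went from 15.5 to 6.03 RPKM in liver and from 25.9 to 10.9 in kidney. In lung it went only from 18.4 to 17.6 RPKM.

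Most heart models were also detected elsewhere. At 1 RPKM or more, 10247 of the 12455 were detected in all of liver, lung and kidney, and these models took 75.7% of heart reads. A further 1370 were detected in 2 of the other libraries, 518 in 1 and 320 in none. The 320 were few but included high models: they took 10.2% of heart reads, 38 of them stood at 100 RPKM or more, and the highest reached 6371 RPKM. Their median level was nevertheless low, at 3.45 RPKM, against 15.2 RPKM for models detected in all 4 libraries. Of the 518 models with 1 other library, 364 had lung, 121 kidney and 33 liver. Of the 1370 with 2 others, liver was the missing library for 1116, kidney for 133 and lung for 121. Liver was also the shallowest library, and the one with most of its reads, 47.7%, on models at 1000 RPKM or more. Whether either bears on the models missing there was not tested.

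The share detected elsewhere was greatest in the middle strata. In all 3 other libraries, 69.3% of the models at 1 to 10 RPKM in heart were detected, 92.3% at 10 to 100, 90.2% at 100 to 1000 and 83.8% at 1000 RPKM or more. Of the 117 highest models, 84.6% were detected in liver, 89.7% in lung and 93.2% in kidney. In liver 13 of these 117 had 0 reads, in lung 6 and in kidney 1.

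The place of heart among the 4 libraries depended on the stratum, and the rule makes part of this, since a model chosen at a high heart level is more often highest in heart. Heart had the highest RPKM of the 4 libraries for 2721 of the 12455 models, or 21.8%, and the lowest for 19.4%. By stratum heart was highest for 13.0% of the models at 1 to 10 RPKM, 23.4% at 10 to 100, 54.7% at 100 to 1000 and 79.5% at 1000 or more. In the lowest stratum the median model stood at 4.47 RPKM in heart, against 9.42 in lung, 6.48 in kidney and 2.84 in liver. The medians of the highest stratum were 1693 RPKM in heart, 755 in kidney, 392 in liver and 254 in lung. Kidney was thus closest to heart by median level at 100 RPKM and above, where the 939 models of the stratum below the highest had medians of 183 RPKM in heart, 139 in kidney, 82.2 in lung and 63.9 in liver.

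**Figure D2:**
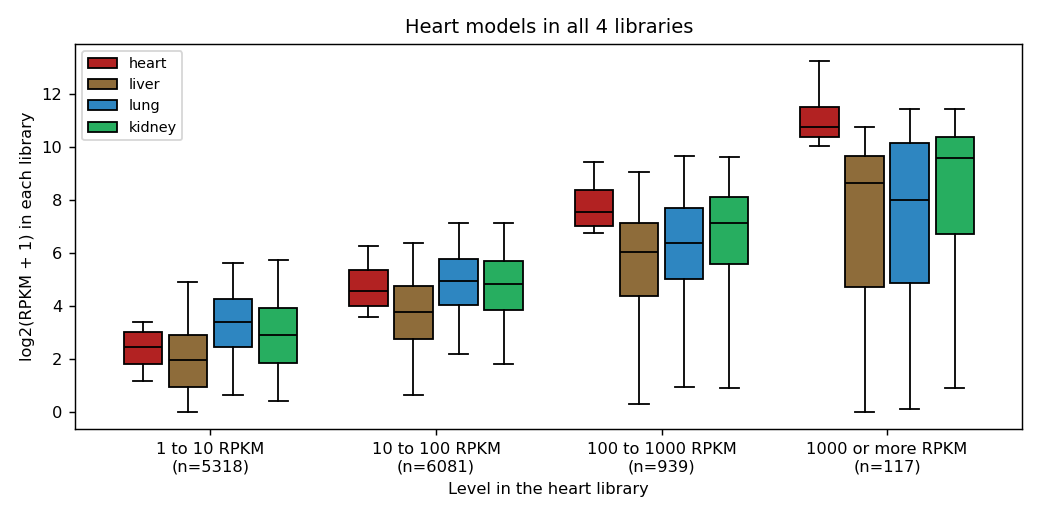
Boxes of log2(RPKM + 1) in each of the 4 libraries for heart models grouped by their heart level (median, quartiles, whiskers at the 5th and 95th percentiles). In the lowest stratum the lung and kidney boxes lie above heart, and at 1000 RPKM or more the medians order as heart, kidney, liver and lung, with long lower whiskers outside heart.

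Scaling bears on these orders. As deposited, the median heart model differed on the log2(RPKM + 1) scale by 0.73 from liver (heart higher), by -0.49 from lung and by -0.23 from kidney (heart lower). Median-ratio scaling takes, over the 10247 models above 1 RPKM in all 4 libraries, each model's ratio to its geometric mean across libraries, and divides a library by its median ratio. After it the differences were 0.23 for liver, 0.03 for lung and 0.18 for kidney, so the sign for lung and kidney turned. Heart was then highest for 31.0% of its models, and by stratum for 19.1%, 35.3%, 63.7% and 82.9%, with the strata kept as before. In the lowest stratum the median model remained lower in heart than in lung, by -0.44, and than in kidney, by -0.08. In the highest stratum the median differences became 1.79 against liver, 3.45 against lung and 1.59 against kidney.

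Differences of at least 5-fold, again with 1 RPKM added to each level so that folds of low models come out too small, were counted over the heart models. Beside them stands the share over all 15357 models that reached 1 RPKM in at least 1 library. A total of 1645 heart models (13.2%) stood 5-fold above liver, against 10.7% of all models, and 430 (3.45%) stood 5-fold below, against 6% of all models. Against lung 769 (6.17%) stood above, with 5.01% of all, and 973 (7.81%) below, with 11.7% of all. Against kidney 764 (6.13%) stood above, with 4.97% of all, and 788 (6.33%) below, with 9.99% of all. The choice of members fixes these departures from the background: a model 5-fold above another library must have at least 4 RPKM in heart, and the minimum of 1 RPKM in heart removes models that are low there. After median-ratio scaling the split against lung was the other way round, with 1019 above and 543 below, and that against kidney was 950 above and 527 below, while against liver it was 1253 above and 665 below. Within the 117 highest heart models, 61 stood 5-fold above liver, 65 above lung and 38 above kidney, and 0 stood 5-fold below any of them.

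Heart-enriched models had 10 RPKM or more in heart and, with 1 RPKM added to each level, 5 times or more the level of whichever other library was highest. There were 382, or 5.35% of the 7137 models at 10 RPKM or more in heart. These same values chose them, so their levels are a description. Heart levels of the enriched models ran from 10.1 RPKM upward, with quartiles of 42.7 and 295 RPKM. The median level of their next-highest library was 4.30 RPKM. For 111 of the 382 that library was below 1 RPKM, for 148 it was between 1 and 10 RPKM, and for 123 it was at 10 RPKM or more, 8 of which were at 100 RPKM or more. The highest next-highest level was 392 RPKM, in liver.

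Enriched models became more frequent, and far more weighty in reads, with level, and the rule makes part of this. It uses the same heart levels, so a model low in heart must be very low elsewhere to be called. A model high in heart need not be, and it can reach a larger fold. From 10 to 100 RPKM 180 of 6081 models (2.96%) were enriched, from 100 to 1000 RPKM 167 of 939 (17.8%), and at 1000 RPKM or more 35 of 117 (29.9%). In the same order they held 5.16%, 34.8% and 67.3% of the heart reads of their stratum. The 35 at the top held 60.9% of the reads of all enriched models and 20.5% of the library. Their median fold over the next-highest library was 308, against 15.7 from 100 to 1000 RPKM and 11.1 from 10 to 100 RPKM. By fold, 143 enriched models lay between 5 and 10, 124 between 10 and 30, 58 between 30 and 100, 48 between 100 and 1000, and 9 at 1000 or more. Those 9 took 9.05% of heart reads and the 143 of lowest fold 2.16%. At the limit itself, the nearest model inside had a fold of 5.01 (41.0 RPKM in heart, 7.38 in the next library) and the nearest outside 4.99 (393 and 77.8 RPKM). There were 64 models between 4- and 5-fold and 43 between 5- and 6-fold.

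The 82 models at 1000 RPKM or more in heart that were not enriched were mostly high everywhere. Their medians were 1611 RPKM in heart, 1012 in kidney, 684 in lung and 547 in liver. They took 9.98% of reads in heart, 6.94% in kidney, 5.78% in lung and 4.03% in liver. Heart was still the highest library for 58 of them, with another library higher for 24. The next-highest library was kidney for 52, lung for 29 and liver for 1. Of all 117 models in the stratum, 16 were at 1000 RPKM or more in all 4 libraries and 69 in heart alone, 34 of the latter without being enriched.

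The 2 enriched models with most heart reads were named by rule. Their folds are RPKM ratios without the 1 RPKM that the enrichment rule adds. With it, the log2 ratios of heart to the next-highest library were 7.78 and 11.5. The model evm.model.scaffold8852.6, of 80727 bases, had 491186 heart reads, against 695 for lung, 61 for kidney and 35 for liver, and was first in the heart library by reads. Its heart level was 433 RPKM (Poisson interval 431 to 434), while the lung level was 0.972 (0.901 to 1.05), the kidney level 0.138 (0.105 to 0.177) and the liver level 0.106 (0.0738 to 0.147). Per length it was only number 283 in heart. Heart exceeded lung 445-fold (413 to 480), kidney 3142-fold (2446 to 4107) and liver 4082-fold (2935 to 5861), so lung stood above kidney and liver while all 3 were far below heart. The second model, evm.model.scaffold9672.28, of 5817 bases, had 445345 reads in heart, 28 in kidney, 7 in lung and 1 in liver. Its level was 5444 RPKM in heart (5428 to 5460), 0.877 in kidney (0.583 to 1.27), 0.136 in lung (0.0546 to 0.280) and 0.0420 in liver (0.00106 to 0.234). Heart exceeded kidney 6205-fold (4293 to 9339) and lung 40052-fold (19439 to 99620). The 2 models were alike in heart reads and differed in length, in RPKM and in next-highest library.

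In 62 of the 12455 heart models (0.498%) heart stood at least 5-fold below the lowest of the other libraries. Over all 15357 models the number was 148 (0.964%), and the minimum of 1 RPKM in heart leaves out the others, so the lower share follows from the choice of members. Of the 62, 51 were between 1 and 10 RPKM in heart. None was at 100 RPKM or more. With 1 RPKM added to each level, as in these counts, the 2 with the largest ratio were evm.model.scaffold9185.25 and evm.model.scaffold9138.1. The log2 ratios of heart to the lowest other library were then -6.00 and -5.00. The folds that follow are RPKM ratios without the added 1 RPKM. The first, of 1614 bases, was at 1.19 RPKM in heart (0.784 to 1.73) and reached 549 in liver (531 to 567), 527 in kidney (512 to 543) and 139 in lung (133 to 145). Lung, its lowest other library, was 117-fold above heart (80.2 to 178). The second, of 1230 bases, was at 1.04 RPKM in heart (0.617 to 1.64) and reached 2453 in liver (2410 to 2496), 1041 in kidney (1017 to 1066) and 64.2 in lung (59.5 to 69.1). Its lowest other library was again lung, 61.7-fold above heart (38.7 to 105). Both had few heart reads, 27 and 18, and their heart intervals reach below the 1 RPKM limit.

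Lung and kidney were the next-highest library for most enriched models. Lung was next for 168 of the 382 (44.0%), kidney for 153 (40.1%) and liver for 32 (8.38%), and 29 (7.59%) had 0 reads in all 3. Among the 6755 other models at 10 RPKM or more in heart, lung was the highest of the 3 for 49.1%, kidney for 45.1% and liver for 5.82%, a similar order. In median-ratio scaled values 438 models were enriched, with lung next for 176, kidney for 146 and liver for 87, and among the others lung was highest for 38.2%, liver for 33.3% and kidney for 28.5%. The low share of liver in both sets as deposited thus changed with the scaling.

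The order of the other libraries was often beyond what the reads resolve. For 167 of the 353 enriched models with a next-highest library, the exact interval of its ratio to the library below it lay wholly above 1. That held for 90 of the 168 with lung, 67 of the 153 with kidney and 10 of the 32 with liver. In 103 of the 353 the next-highest library had fewer than 10 reads. In 43 the library below it had 0 reads. Of the 382 enriched models, 133 had 0 reads in liver, 62 in lung and 61 in kidney, in libraries of unequal depth.

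The groups by next-highest library differed in length and level. Models with lung next had a median length of 1293 bases (quartiles 773 and 2464) and a median heart level of 90.8 RPKM. Those with kidney next were shorter, at 843 bases (480 and 1593), and higher, at 142 RPKM. The 32 with liver next had a median of 580 bases and 131 RPKM. In reads the lung and kidney groups were close, with 15.5% and 16.4% of the heart library, and the liver group had 1.37%. Among the 35 enriched models at 1000 RPKM or more, kidney was next for 20, lung for 13 and liver for 2. Median next-highest levels were 3.86 RPKM for lung, 6.33 for kidney and 6.29 for liver, and the enrichment rule itself keeps these levels well below heart.

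**Figure D3:**
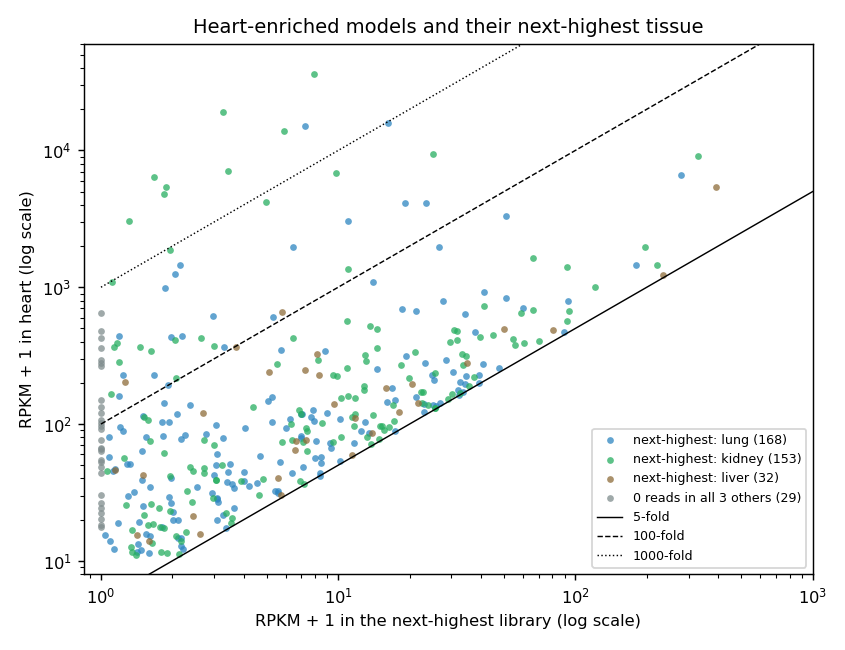
Each point is 1 of the 382 heart-enriched models, with RPKM + 1 in heart (vertical, log scale) against RPKM + 1 in its next-highest library (horizontal, log scale), coloured by that library. Lung (168) and kidney (153) points mix over the whole range, 29 models with 0 reads elsewhere line the left edge at no more than 648 RPKM, and 9 models lie on or above the 1000-fold line.

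As deposited, length moved with the next-highest library in the same way outside the enriched set. For enriched models of 600 bases or less, kidney was next in 60 of 120 and lung in 33. Above 1800 bases lung was next in 60 of 110 and kidney in 36. Among the other models at 10 RPKM or more, kidney was highest of the 3 in 59.7% and lung in 33.2% of those of 600 bases or less, against 30.2% and 66.0% above 1800 bases. After median-ratio scaling the enriched models of 600 bases or less had kidney next in 47, liver in 42 and lung in 28 of 127, and those above 1800 bases had lung next in 62, kidney in 34 and liver in 22 of 124. Whether length acts on the level or on the measurement was not tested.

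The 29 enriched models with 0 reads in liver, lung and kidney were of moderate level. Their heart levels ran from 16.7 to 648 RPKM with a median of 75.7 RPKM, 12 of them were at 100 RPKM or more, and none was in the highest stratum. They had between 51 and 19347 heart reads, 0.437% of the library in all. Lengths ran from 185 to 4689 bases with a median of 669. Against a floor of 3 counts in each other library, which is what a count of 0 allows, 27 of the 29 were at least 10-fold higher in heart than in every other library, and the lowest such limit was 4.95-fold. These limits cover counting error only.

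The median length of enriched models was below that of the others at 10 to 100 RPKM and above it in the higher strata, but the order-statistic 95% intervals of the medians overlapped in each stratum. From 10 to 100 RPKM the medians were 1146 bases (972 to 1383) for the 180 enriched and 1347 (1320 to 1380) for the 5901 others. From 100 to 1000 RPKM they were 1041 (807 to 1260) and 829 bases (777 to 894). At 1000 RPKM or more they were 807 (528 to 1086) and 490.5 bases (444 to 606). All 35 enriched models of the highest stratum had lengths that were multiples of 3, against 92.7% of the 82 others. In that stratum 4 of the 35 were of 3000 bases or more, the longest of 7149 bases, and 0 of the 82. From 10 to 100 RPKM, 24 of the 180 enriched models (13.3%) were of 300 bases or less, against 2.91% of the others, and 18.3% were of 3000 bases or more, against 14.8%, so in this stratum the enriched lengths were more widely spread. From 100 to 1000 RPKM the short shares were alike, at 7.78% of the enriched and 7.90% of the others. The long shares there were 11.4% and 4.79%.

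**Figure D4:**
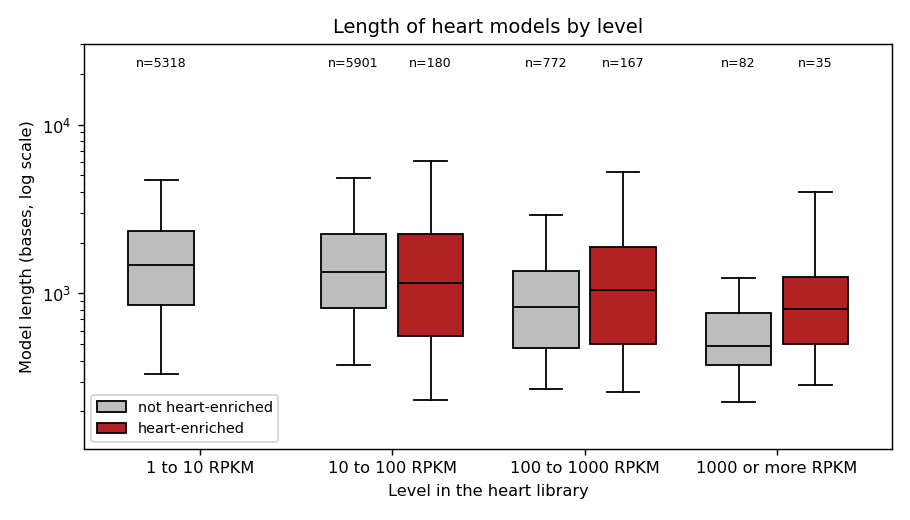
Boxes of model length (bases, log scale) for heart models by heart level, for enriched (red) and other models (grey), with medians, quartiles and whiskers at the 5th and 95th percentiles. The grey medians go from 1467 bases at 1 to 10 RPKM to 490.5 at 1000 RPKM or more, and the red median lies below the grey at 10 to 100 RPKM and above it in both higher strata.

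As a share of models at 10 RPKM or more, enriched models in heart were most frequent at 300 bases or less. Shares at 301 to 600 and above 4800 bases were close to each other, and those between were lower. The share was 14.6% (41 of 281) at 300 bases or less, 7.71% at 301 to 600, 4.31% at 601 to 1200, 4.11% at 1201 to 2400, 4.67% at 2401 to 4800 and 7.74% (26 of 336) above 4800 bases. The same rule applied to the other libraries gave 9.03% in lung, 6.73% in liver and 4.90% in kidney at 300 bases or less, and 5.77%, 5.11% and 2.21% above 4800 bases. In heart the 41 short models had a median of 268 reads, and 6 of them had 0 reads in all other libraries. After median-ratio scaling the heart shares at the ends were 15.6% and 7.95%, with 4.78% at 1201 to 2400 bases. Restricted to models listed in all 4 tables they were 7.32% and 6.93%, with 2.72% at 1201 to 2400 bases, so the excess of short models shrank while both ends stayed above the middle. With a pseudocount of 10 they were 6.76% and 5.65%, with 2.35% in between. The shares of the other libraries under these settings are not given here.

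**Figure D5:**
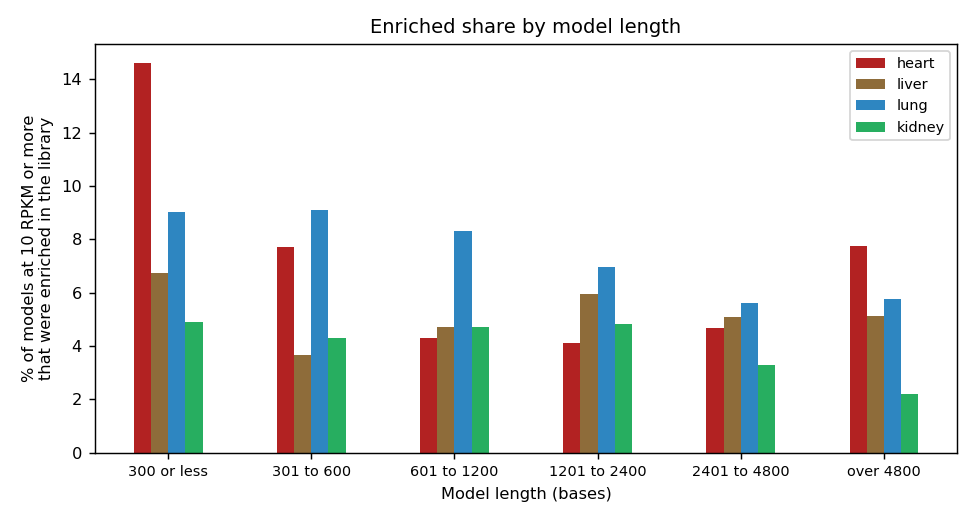
Bars of the share (%) of models at 10 RPKM or more that were enriched in the library, by model length in bases, for each of the 4 libraries. Heart stands highest at 300 bases or less (14.6%) and above 4800 bases (7.74%), whereas from 301 to 4800 bases the lung bar is above the heart bar.

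Enriched models were spread over many scaffolds, with some next to each other. The 382 lay on 330 scaffolds, of which 281 held 1 enriched model, 47 held 2, 1 held 3 and 1 held 4. A neighbour was defined as a model with the next or previous number on the same scaffold. It was enriched for 36 of the 382 (9.42%), against 2.86% of the 6755 other models at 10 RPKM or more. The same rule gave 19.5% of enriched models in liver, against 2.24% of its other models at 10 RPKM or more. In lung the shares were 12.8% and 5.13%, and in kidney 12.8% and 2.93%. In each library the share was thus higher among enriched models, and no order between the libraries was tested. The 36 models formed 18 pairs. Within pairs the median ratio of the higher to the lower heart RPKM was 5.60, both members were in the same stratum in 6 of 18, and the same library was next-highest for both in 9 of 18. These values were not compared with pairs of enriched models that are no neighbours. The share with an enriched neighbour was 4.41% when restricted to models listed in all 4 tables and 5.33% with a pseudocount of 10. Those settings had fewer enriched models, 227 and 225. The share among the other models was not computed for them, so whether the excess changed is not known. With neighbours up to 3 model numbers away it was 15.7%, against 6.87% of the other models. Whether model numbers follow the order on the scaffold, and whether some neighbours are parts of a single gene, is not given in the sources used here.

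The scaffold with 4 enriched models was scaffold 42051, which held 20 heart models. Its model number 25, of 1425 bases, was at 3322 RPKM in heart, against 50.1 in lung, 24.2 in kidney and 2.74 in liver. Number 26, of 9909 bases, was at 20.7 RPKM in heart, against 2.27 in lung, 1.21 in kidney and 0.0987 in liver. Both had the same order of libraries at levels far apart. Numbers 33 and 35 were at 28.2 and 62.6 RPKM in heart, with lung next for the former (0.928 RPKM) and kidney for the latter (6.38 RPKM). On scaffold 21076, with 3 enriched models among 12 heart models, heart levels were 482, 149 and 21.5 RPKM, and the next-highest library was liver (79.4 RPKM), lung (16.3 RPKM) and kidney (2.37 RPKM).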

How the data were processed

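Per the labels' protocols, Trizol was used to extract total RNA and an Illumina TruSeq RNA kit to make the libraries, and TopHat is named in the submitters' processing notes. How reads were counted, how those with several matches or on either strand were treated, and which build and annotation were used is not given in the sources used here, so models that share sequence with a near copy are uncertain. The authors deposited, per the file headers, the read count of each gene model, its length, the library total and the RPKM. Here counts summed to the stated total, RPKM equalled count over length and total (relative tolerance 1e-12), and 0 of 18367 identifiers matched either table of pig genes. Gene and marker lists were therefore not used.

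Tables were joined on the identifier. Rules were a detection limit of 1 RPKM, strata at 1, 10, 100 and 1000 RPKM, and for enrichment 10 RPKM and 5-fold with a pseudocount of 1. Reads have 95% exact Poisson or Clopper-Pearson intervals, which cover counting error only, as does the floor of 3 counts. With 1 library per tissue no model was fitted and no p-value is given. Members, lists and rules were chosen with earlier results of these data known. Named models are the 2 enriched of most heart reads, and the 2 of largest ratio of the lowest other library to heart. That ratio had 1 RPKM added to each level. Scaffolds with 3 or more enriched models and single models described without identifier were chosen after their values were seen. On simulated Poisson counts of 18367 models for heart against the 3 other tissues, the rule called 0 of 18167 unchanged models and 0 of 67 with a 3-fold change, but 67 of 67 at 10-fold and 66 of 66 at 30-fold. All simulated libraries shared a pooled profile, changed models came from a limited range of levels, and noise was counting error only. The simulation therefore checks that the rule runs as written and gives no error rate for the enriched models. Alternatives covered scaling, thinning, pseudocount, fold, minimum and models listed in all 4 tables. The software was Python 3.11.15 with scipy 1.17.1, numpy 2.4.6, pandas 2.3.3 and matplotlib 3.10.9.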

Additional observations from a re-analysis of the deposited data

How the results depend on the processing

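No paired analysis was possible because there was a single library for every tissue, which also left no replicate to omit. Of 76 counts under alternatives 58 stayed within 1.5 times. Of 28 shares of heart reads, 21 left the interval of the main value, which covers counting error only. So did 9 of the 24 log2 ratios of the 4 named models. In sign 0 of the 24 ratios reversed, but the rules that named these models required large differences, so a reversal was hardly possible. The count of heart models stayed within 1.5 times under every alternative run for it. Depth limits low levels most, and the alternatives applied to the other models at 10 RPKM or more and to the named models were added after seeing the data. The cause of the following moves was not tested.

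Median-ratio scaling gave liver as next-highest for 87 enriched models (from 32), 36.2% of heart reads on enriched models (from 33.7%) and 31.7% on models at 1000 RPKM or more (from 30.5%). TPM-like scaling gave 34.5% and thinning 33.8% of heart reads on enriched models. Restricting to models listed in all 4 tables, by construction fewer models, gave 227 enriched models, 104 with lung and 99 with kidney next, 24.2% of heart reads on them and 22.8% on models at 1000 RPKM or more. A 3-fold minimum gave kidney next for 234 and liver for 50, with 38.0% of reads. A 10-fold minimum gave 239 enriched models, with lung next for 101, kidney for 93 and liver for 16, and 31.5% of reads. A heart minimum of 20 RPKM gave 33.6% and a pseudocount of 0.1 gave 33.8% of reads on enriched models. A pseudocount of 10 gave 225 enriched models, with kidney next for 95, lung for 88 and liver for 20, and 32.4% of reads, so kidney then stood before lung. Starting the highest stratum at 500 or 2000 RPKM gave 39.1% or 23.5% of heart reads.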
